A study of Rattus norvegicus with 8 samples.

Results

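Gene expression in untreated trigeminal nerve of the rat strain BDIV was compared with that of every strain on the BDIX background. The samples were 8 pools of nerves from 85-day-old rats, 1 female and 1 male pool per strain, each on 1 Illumina RatRef-12 bead array. The 2 BDIV arrays were set against 6 others: 2 of BDIX, 2 of BDIX.BDIV-Mss4a (Mss4a below) and 2 of BDIX.BDIV-Mss4d (Mss4d below). The congenic strains carry a chromosome segment of BDIV, named for the tumour locus Mss4, on a genome that otherwise comes from BDIX. BDIV nerve therefore differs from the 6 arrays over the whole genome, and the congenics share with it only the introgressed segment. The members are the probes for which both BDIV arrays lay above, or both below, all 6 other arrays. Of 22523 probes on the array, 13114 were above background on at least 2 arrays and were tested, and 5152 of these were members. At the level of genes, 3675 of 9154 tested genes were members, each gene read from its brightest probe. The rule and the tests below read the same values, so a member's limma p describes it and is no separate evidence that it stands apart.

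The trigeminal nerve carries the axons of sensory neurons of the face, wrapped by Schwann cells and bundled by fibroblasts and perineurial cells. BDIX rats are known for malignant Schwann cell tumours of this nerve after the carcinogen ethylnitrosourea, and BDIV rats are resistant. In Schwann cells, neuregulin 1 from the axon acts through the receptor tyrosine kinases Erbb2 and Erbb3, and the transcription factor Sox10 keeps the lineage's identity. In pooled whole nerve, fewer cells of a type and less RNA per cell cannot be told apart.

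The BDIV arrays were more alike than the pair of any other strain. Across the tested probes they correlated with r = 0.996, against 0.978 to 0.981 for the other 3 pairs, and the SD of male minus female was 0.219 on the log2 scale, against 0.486 to 0.509. Only 50 probes differed by more than 1 between the BDIV pools, compared with 424 to 805 in the other strains. The array holds no probe for Xist or for the Y-linked genes Ddx3y, Eif2s3y, Kdm5d and Uty, so the sexes were not checked by them. Prl, the pituitary hormone prolactin, was lower in males than in females of all 4 strains, and male minus female was -2.35 in BDIV. Its level also varied between strains: the BDIX male pool (8.85) was above the BDIV female (7.72) and Mss4d female (8.17) pools. Prl alone therefore does not tell the sex of a pool. The 8 marker genes for nerve tissue that were read were above background on every array, between 8.03 and 15.4 on the log2 scale. The labels say nothing of which arrays shared a slide, and they do not count the animals in a pool. Probe sequences were not available, so no probe was checked against sequence variants between the strains. For any gene below, a difference in probe binding therefore could not be told apart from one in RNA. Each sex of a strain was 1 pool, so the p-values measure the spread between these 8 pools, and the number of arrays limits their precision.

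BDIV lay outside the range of the 6 other arrays at many genes, by mostly small distances. Both BDIV arrays lay above the 6 others at 2473 probes (18.9% of those tested) and below at 2679 (20.4%). The same count was not made for any other strain. These shares therefore do not show that BDIV stands apart more than another strain would. The gap, the distance between the nearest BDIV array and the nearest other array, had a median of 0.32 above and -0.29 below on the log2 scale. It reached 1, a doubling, at 136 genes above and 125 genes below. By limma with sex as a term, 935 probes were called higher in BDIV (7.13%) and 922 lower (7.03%) at a Benjamini-Hochberg adjusted p under 0.05. All but 1 of the called probes were members, and 3296 members were not called. Counted by genes, 1673 were above (18.3%) and 2002 below (21.9%), 626 were called higher (6.84%) and 714 lower (7.8%), and the median difference over all tested genes was -0.04.

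These counts depend on how the 6 arrays are treated. With strain as a random block, which allows for the likeness of arrays of 1 strain (correlation 0.554), 222 probes were called (1.69%), 113 higher and 109 lower, and all 222 were members. Without the BDIV female array 9 probes were called, and without the BDIV male array 13. The gene lists below then kept 1 call in all without the female array (an interferon-induced gene) and 2 without the male array (red cell genes). Of the 1857 called probes, 1173 were called the same way on leaving out each of the 6 other arrays in turn, and 851 on leaving out each of the other 3 strains. When background-corrected arrays were divided by their medians in place of quantile normalization, the median difference over the tested probes moved to 0.12. Then 583 probes were called, 86.6% of them higher in BDIV against 50.4% in the quantile normalized values. The split between higher and lower genes thus moved with the scaling. No probe was called for a different BDIV effect in the sexes (0.0%), with 14 at an unadjusted p under 0.05.

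The largest gap above belonged to Rpl30, a protein of the large ribosomal subunit. Its log2 intensity was 12.27 and 12.31 in the BDIV female and male pools, against a lowest, median and highest value of 5.05, 6.48 and 7.13 on the other arrays. Both Mss4a arrays were not above background for this probe, and both Mss4d arrays and the BDIX male array gave about 7.1. The difference was 6.05 ± 0.60 (standard error, limma adjusted p = 0.0014, and 0.00445 with strain as a block). Of 58 tested ribosomal protein genes, 8 were members above (13.8%, against 18.3% of all genes) and 0 below. Called higher were 3 (5.17%, against 6.84% of all genes), 1 of them with strain as a block, and the median difference was 0.15.

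Class I genes of the major histocompatibility complex on chromosome 20, which display peptides to T cells, followed. RT1-CE16 read 8.05 and 8.08 in BDIV, whereas the other arrays ran from 4.67 through 4.77 to 4.94 and none was above background. It was at least 6.83-fold higher in BDIV (limma adjusted p = 9.38e-05, and 0.00068 with strain as a block). RT1-A3 read 11.10 and 11.10 in BDIV against 8.51, 9.12 and 9.30, a difference of 2.10 ± 0.22 (limma adjusted p = 0.00186). The BDIV arrays were clear of the rest for both genes. RT1-N3 went the other way, at 5.72 and 5.79 in BDIV against 6.46, 6.99 and 7.65 (-1.28, limma adjusted p = 0.0236, and 0.13 with strain as a block). Over 17 tested genes of class I presentation, 2 were members above and 3 below, and the median difference was 0.09. These shares were 11.8% and 17.6%, against 18.3% and 21.9% of all genes. Class I genes are near copies of each other, so a probe may read more than 1 of them. How alike they are shows in the promoters of both risen genes, from RefSeq on GRCr8, 250 bases before to 50 after the start. In capitals is their longest shared stretch, 95 bases.
RT1-CE16 (chr20:3265394-3265693, minus strand): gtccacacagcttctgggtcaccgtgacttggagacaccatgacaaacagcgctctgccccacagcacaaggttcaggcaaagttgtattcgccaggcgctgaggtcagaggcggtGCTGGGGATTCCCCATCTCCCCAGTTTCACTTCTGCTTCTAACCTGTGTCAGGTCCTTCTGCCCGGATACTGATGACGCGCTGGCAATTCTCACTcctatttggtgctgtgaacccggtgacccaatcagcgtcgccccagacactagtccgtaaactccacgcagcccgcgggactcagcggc
RT1-A3 (chr20:4849201-4849500, plus strand): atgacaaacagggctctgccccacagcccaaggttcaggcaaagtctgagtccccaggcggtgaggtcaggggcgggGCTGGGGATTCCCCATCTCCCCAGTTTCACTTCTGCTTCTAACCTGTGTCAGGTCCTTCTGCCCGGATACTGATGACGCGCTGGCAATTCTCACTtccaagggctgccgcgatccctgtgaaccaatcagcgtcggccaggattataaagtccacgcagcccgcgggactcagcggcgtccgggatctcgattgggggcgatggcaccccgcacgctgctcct

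The other genes with the 15 largest gaps above included several that are active in neurons. Pafah1b1, whose product LIS1 regulates the motor dynein, read 10.15 and 10.20 in BDIV against 6.31, 6.70 and 7.37. The difference was 3.46 ± 0.30 (limma adjusted p = 0.000629, and 0.00513 with strain as a block). Nrg1, the ligand of the Schwann cell receptors, read 9.33 and 9.27 in BDIV against 4.96, 5.96 and 7.17, of which 4 of the 6 were above background. It rose by 3.33 ± 0.51 (limma adjusted p = 0.0057, and 0.0446 with strain as a block). Its lowest values were those of the Mss4a pools, and the highest was the Mss4d female pool, so the 6 arrays were far from uniform. Celf6, an RNA-binding protein, read 9.0 and 9.07 in BDIV against 5.87, 6.29 and 6.83. Kcnip1, a subunit of voltage-gated potassium channels, read 8.36 and 8.24 against 5.56, 6.05 and 6.44. Lgi2, a secreted protein of the family mutated in human epilepsy, read 8.90 and 9.02 against 4.99, 6.26 and 7.09. All 3 rose, by 2.70, 2.27 and 2.72, and Lgi2 was no longer called with strain as a block (adjusted p = 0.0796).

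Further genes in this set have other roles. Hspb8, a small heat shock protein mutated in human hereditary neuropathy, read 12.49 in both BDIV pools against 9.67, 10.28 and 10.72, a rise of 2.22 ± 0.31 (limma adjusted p = 0.00425). Reg3a, a secreted lectin, read 8.13 and 8.02 in BDIV against 4.67, 5.20 and 5.56, with 2 of the 6 other arrays above background. Clrn1, the clarin of human Usher syndrome, read 10.66 in both BDIV pools against 7.93, 8.39 and 8.63. Each of these genes had BDIV pools that differed by at most 0.10 and lay clear of the other arrays. Psmd5, an assembly chaperone of the proteasome, rose by 2.52, and Plcxd3, Commd6 and Tlcd3b rose by 2.87, 2.95 and 2.91. Psmd5 had an adjusted p of 0.0528 with strain as a block. The smallest gap in this set was 1.77, and the next gene outside it had 1.72.

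**Figure D1:**
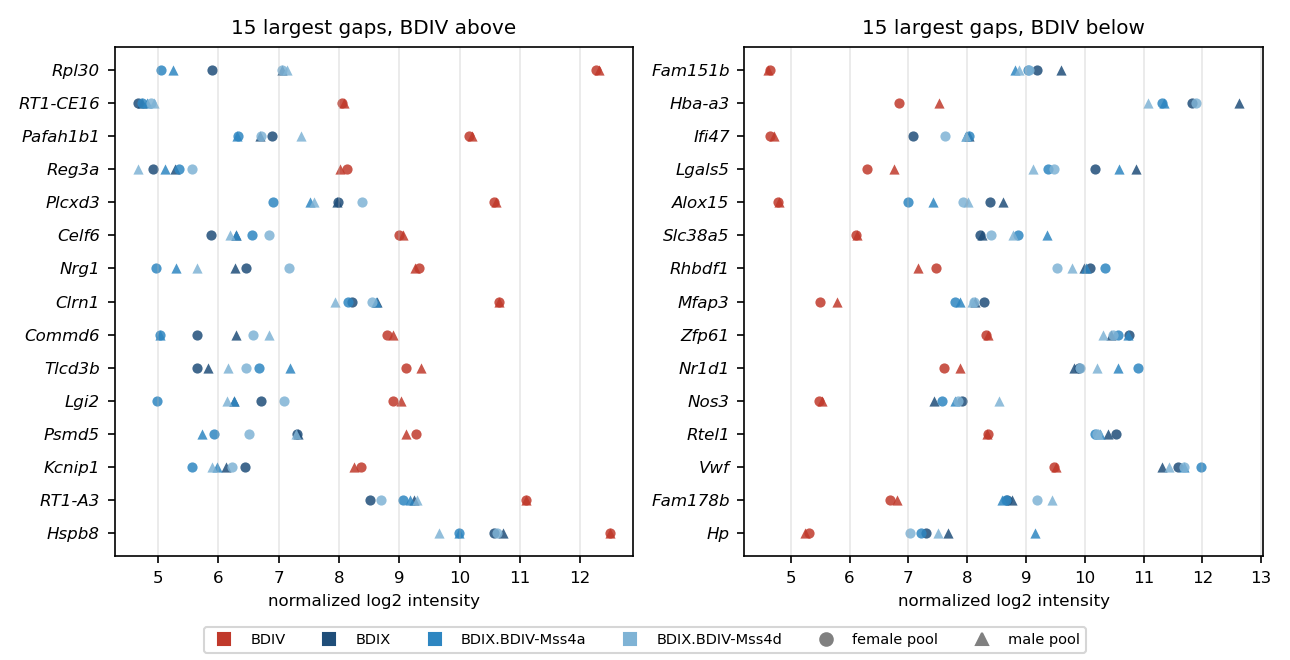
Normalized log2 intensity (x axis) of the 15 named genes with the largest gap above (left) and below (right), 1 point per array, coloured by strain, circles for female and triangles for male pools. The red BDIV points lie apart from all 6 blue points in every row, by 5.14 for Rpl30 and by 1.72 for Hp.

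The largest gap below was at Fam151b, whose function is little known. It read 4.65 and 4.61 in BDIV, not above background, against 8.82, 9.04 and 9.60. It was at least 15.1-fold lower in BDIV (limma adjusted p = 9.38e-05, and 0.000631 with strain as a block). The 6 other arrays lay within 0.78 of one another, so all 3 BDIX-background strains carried it alike. Of the 8 probes that were called on leaving out each of the 8 arrays, Fam151b was the one with a gene symbol.

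Of the other 14 genes with the 15 largest gaps below, 4 were in the red cell or granulocyte lists. Hba-a3, an alpha globin, read 6.85 and 7.53 in BDIV against 11.07, 11.59 and 12.63 (-4.49 ± 0.40, limma adjusted p = 0.00073, and 0.00906 with strain as a block). Lgals5, a galectin of rat reticulocytes, read 6.29 and 6.76 against 9.11, 9.83 and 10.87. Alox15, the 15-lipoxygenase of reticulocytes and eosinophils, read 4.78 and 4.79 in BDIV, not above background, against 7.0, 7.97 and 8.62. It was at least 6.55-fold lower (limma adjusted p = 0.00341, and 0.0148 with strain as a block). Hp, the haemoglobin-binding haptoglobin, read 5.31 and 5.24 against 7.03, 7.40 and 9.15 (-2.37, limma adjusted p = 0.0103, and 0.0934 with strain as a block). For these 4 genes the other arrays spread over 1.55 to 2.13, more than for Fam151b.

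Over the whole list of red cell genes, 11 of 15 tested were members below (73.3%, against 21.9% of all genes) and 0 above. Called lower were 8 (53.3%, against 7.8% of all genes). The median difference was -1.57, against -0.04 over all tested genes. With strain as a block 5 were called, and 7 with detection p under 0.01 required on all 8 arrays. The mean level of the list was 7.75 and 7.94 in the BDIV pools and 8.86 to 9.78 on the other arrays. The beta globins Hbb (12.58 and 13.12 against 14.80, 15.18 and 15.36) and Hbb-b1 (10.15 and 10.62 against 12.06, 12.60 and 13.54) also fell, with differences of -2.28 and -2.25. Both beta globin probes were above background in BDIV. A further alpha globin, Hba-a2, read 5.13 and 5.20 in BDIV, was above background on 1 BDIV array and 1 other array, and was not a member. Of 14 tested granulocyte and marrow genes, 13 were members below (92.9%, against 21.9% of all genes). Called lower were 5 (35.7%, against 7.8% of all genes), 1 with strain as a block and 3 after median scaling. With detection p under 0.01 required on all 8 arrays, 1 gene of the list was called lower. The list's median difference was -1.91, and its mean level was 5.03 and 5.08 in BDIV against 5.63 to 8.59. Genes of the list not above background in BDIV, such as Mpo and Alox15, passed the detection filter only through the other arrays. For such genes the filter left no room for a position above, so the list's share is a description. The defensin gene Defa5 read 5.23 and 5.38 against 7.02, 9.80 and 11.60, and the myeloperoxidase gene Mpo read 5.0 and 4.97 against 5.68, 6.74 and 8.44. Mpo was not above background in BDIV and was at least 3.17-fold lower, and neither gene was called with strain as a block (adjusted p = 0.135 and 0.294). The nerve's blood content was not recorded, and the part of blood in the other downward differences was not tested.

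GATA factors drive red cell genes, and the motif AGATAA was searched on both strands in RefSeq promoters on GRCr8 of the 8 red cell genes that were called. Only this exact sequence was searched, so other forms of a GATA site were not counted. The table held 7 of the 8 genes with 8 starts, and 2 starts held the motif, those of Lgals5 and of Hemgn (its second start), against 11.6% of all 33469 promoters. Both are shown with the motif or its reverse complement in capitals.
Lgals5 (chr10:64355088-64355387, minus strand): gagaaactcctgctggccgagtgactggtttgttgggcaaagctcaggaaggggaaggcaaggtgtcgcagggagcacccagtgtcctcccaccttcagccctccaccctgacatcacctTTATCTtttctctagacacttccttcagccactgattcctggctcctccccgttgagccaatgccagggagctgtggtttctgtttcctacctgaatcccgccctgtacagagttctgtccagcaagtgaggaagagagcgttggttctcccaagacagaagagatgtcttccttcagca
Hemgn (chr5:65485772-65486071, minus strand): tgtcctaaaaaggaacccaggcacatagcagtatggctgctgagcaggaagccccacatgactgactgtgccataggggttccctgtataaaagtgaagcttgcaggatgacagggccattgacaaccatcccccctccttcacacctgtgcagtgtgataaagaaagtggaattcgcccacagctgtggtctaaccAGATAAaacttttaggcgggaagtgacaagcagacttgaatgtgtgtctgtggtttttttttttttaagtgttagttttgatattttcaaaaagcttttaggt

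Several other large falls were genes of vessels and of signalling. Ifi47, an interferon-inducible GTPase, read 4.64 and 4.72 in BDIV, not above background, against 7.09, 7.98 and 8.03. It was at least 6.08-fold lower (limma adjusted p = 0.000592, and 0.00751 with strain as a block). The interferon list as a whole did not go one way: of 17 tested genes 5 were members above and 3 below. These shares were 29.4% and 17.6%, against 18.3% and 21.9% of all genes. The list had 1 call in each direction (5.88% each, against 6.84% of all genes higher and 7.8% lower). Its median difference was -0.04 (0.19 after median scaling). Its member called higher was Mx2, an antiviral GTPase, at 10.53 and 10.59 in BDIV against 8.62, 9.50 and 9.64. It was not called with strain as a block (adjusted p = 0.1), and no gene of the list was called higher after median scaling. Nos3, the endothelial nitric oxide synthase, read 5.47 and 5.53 in BDIV against 7.44, 7.82 and 8.55. Vwf, the von Willebrand factor of endothelium and platelets, read 9.48 and 9.52 against 11.32, 11.64 and 11.97. These vessel genes fell by 2.35 and 2.12 (limma adjusted p = 0.00306 and 0.00146) and were also called with strain as a block. Of 9 tested endothelial genes 4 were members below (44.4%, against 21.9% of all genes). Called lower were 2 (22.22%, against 7.8% of all genes), with a median difference of -0.78. With strain as a block 1 was called, Vwf, and Tie1 was not (adjusted p = 0.0969), and after median scaling 1 was called. The mean level of that list was 8.12 and 8.22 in BDIV against 8.58 to 9.87.

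Rhbdf1, an inactive rhomboid whose gene is a neighbour of the alpha globins, read 7.48 and 7.16 in BDIV against 9.53 to 10.35. Mfap3, a microfibril-associated protein, read 5.49 and 5.78 against 7.79, 8.10 and 8.28, and Rtel1, a helicase of telomeres, read 8.35 and 8.33 against 10.18, 10.24 and 10.54. All 3 fell, by 2.64, 2.41 and 1.96. Zfp61, a zinc finger protein, and Slc38a5, an amino acid transporter, fell by 2.22 and 2.53. Fam178b fell at both of its probes, by 2.14 and 1.16. The smallest gap among the 15 was -1.72, at Hp, and the next gene outside had -1.68.

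Of the 1857 called probes, 43 were above background in both BDIV pools (detection p under 0.01) and on none of the 6 other arrays. They passed the detection filter through the BDIV arrays alone, and 19 of them had a gene symbol. Among those with the largest gaps were genes at low level. Nts, the neuropeptide neurotensin, read 6.92 and 6.53 in BDIV against 4.69, 4.79 and 5.13, at least 2.70-fold higher (limma adjusted p = 0.0026, and 0.0289 with strain as a block). Plpp1, a lipid phosphatase, read 7.02 and 6.93 in BDIV against 4.70, 5.06 and 5.23, and was at least 3.20-fold higher. Ttl, the tubulin tyrosine ligase, read 6.20 and 6.30 against 4.51, 4.71 and 4.92, and Pak3, a kinase of neurons, read 6.38 and 6.21 against 4.76, 4.93 and 5.14. Both were called with strain as a block (adjusted p = 0.0328 and 0.0496). Rgs5, a pericyte gene, was at least 1.44-fold higher, and Ptf1a, a transcription factor of pancreas and inhibitory neurons, at least 1.40-fold higher. Neither was called with strain as a block (adjusted p = 0.0746 and 0.0933).

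The reverse pattern, above background on all 6 others (detection p under 0.01) and on neither BDIV array, held for 15 of the 1857 called probes, 12 with a gene symbol. It asks for detection on all 6 others, and the first pattern only on the BDIV pools, so the counts cannot be compared. Besides Fam151b, Ifi47 and Alox15, they included Slc12a8, a solute carrier, at 5.14 and 4.93 in BDIV against 6.68, 7.04 and 7.55 (at least 3.78-fold lower, limma adjusted p = 0.00393). Grin2b, an NMDA receptor subunit, read 4.52 and 4.61 against 6.13, 6.37 and 7.03, at least 2.46-fold lower (limma adjusted p = 0.00521). Chrdl1, an antagonist of bone morphogenetic proteins, read 4.85 and 4.8 against 5.98, 6.62 and 6.70. Ube3a, the ubiquitin ligase of human Angelman syndrome, read 5.12 and 5.08 against 6.18, 6.68 and 6.98. All of these genes were called with strain as a block, with adjusted p between 0.0299 and 0.0492. Hemgn, a nuclear protein of red cell precursors, read 5.0 and 5.10 against 6.36, 7.65 and 9.22, with an adjusted p of 0.162 with strain as a block. Atp5mk, a small subunit of the ATP synthase, read 5.06 and 4.79 against 6.27, 6.74 and 7.98 and likewise lost its call (adjusted p = 0.15).

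**Figure D2:**
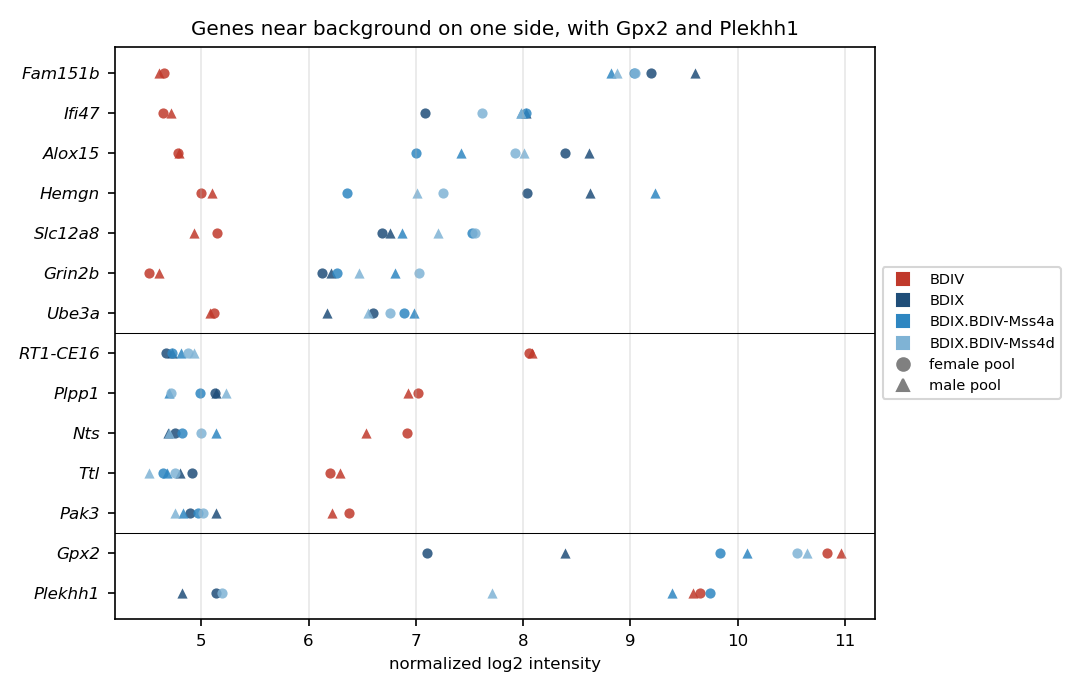
Normalized log2 intensity (x axis) on each array for genes not above background in BDIV (top), not above background on the 6 other arrays (middle), and for Gpx2 and Plekhh1 (bottom). Colours give the strain, circles female and triangles male pools. Fam151b reads 4.61 to 4.65 in BDIV and 8.82 to 9.60 elsewhere, and Plekhh1 in Mss4a overlaps with BDIV.

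Plekhh1 and Gpx2, both on chromosome 6, lay at the edge of the range rule, Plekhh1 outside the members and Gpx2 just inside. Plekhh1, a protein with pleckstrin homology domains, read 9.64 and 9.59 in BDIV. The Mss4a pools gave 9.74 and 9.38, BDIX 5.14 and 4.82, and Mss4d 5.20 and 7.71. BDIV thus lay inside the range of the 6 arrays, at the level of 1 congenic strain, and limma gave no call (adjusted p = 0.232). Gpx2, a glutathione peroxidase, read 10.83 and 10.96 in BDIV, 7.10 and 8.39 in BDIX, 9.84 and 10.09 in Mss4a, and 10.55 and 10.65 in Mss4d. It was a member by a gap of 0.17 and was not called (adjusted p = 0.287).

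For 188 genes more than 1 probe was tested, and all probes of a gene lay outside the range on the same side for 37 of them, 12 above and 25 below. Where 1 probe had a gap of at least 0.5, another probe of the gene differed in the same direction in 37 of 42 pairs and was itself a member on that side in 27. The other probe showed a median of 0.449 of the first probe's difference, so the size of a single-probe difference was often not shared. Dennd2b, a regulator of Rab GTPases, fell by 1.02 and 1.25 at its probes, and U2surp, a splicing protein, by 1.10 and 1.09. Tie1, an endothelial receptor, fell by 1.90 and 1.21. Higd2a, a mitochondrial assembly factor, rose by 1.13 and 1.98, and Ctnna2, the neuronal alpha catenin, by 1.09 and 1.51. None of these 5 genes was called with strain as a block at either probe (lowest adjusted p = 0.0692). Yif1b differed, by 1.36 at one probe (called) and 0.35 at the other (adjusted p = 0.352).

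The sensory neuron list held the highest share of members above. Of 24 tested genes, 19 were above the 6 arrays and 0 below (79.2%, against 18.3% of all genes). Called higher were 13 (54.17%, against 6.84% of all genes), and the median difference was 1.16. With strain as a block 0 were called (lowest adjusted p = 0.0504), and after median scaling 8. The mean level of the list was 11.95 and 11.92 in the BDIV pools and 10.77 to 11.22 on the others. Sst, the neuropeptide somatostatin, read 10.15 and 9.82 against 5.96, 7.34 and 8.24. Nefh, the heavy neurofilament subunit, read 11.67 and 11.91 against 8.98, 10.17 and 10.29. Thy1, a surface protein of neurons, read 12.72 and 12.50 against 10.08, 10.73 and 11.36, and Ntrk2, the receptor of brain-derived neurotrophic factor, 10.35 and 10.39 against 8.31, 8.59 and 9.15. They rose by 2.81, 1.93, 1.84 and 1.72 (limma adjusted p between 0.0057 and 0.0139). Nefl, Calca, Trpv1, Gap43 and Rtn1 were not members. Nefl, the light neurofilament subunit, read 14.60 in both BDIV pools against 14.52 to 15.06. Calca, which is also in the thyroid list, read 4.69 and 4.63 in BDIV, not above background. Its values of 8.92 and 14.83 in the Mss4d female and male pools enter the list mean of those pools.

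Members of the myelinating Schwann cell list lay below. Of 13 tested myelinating Schwann cell genes, 6 were members below (46.2%, against 21.9% of all genes) and 0 above. Called lower were 5 (38.46%, against 7.8% of all genes), 3 of them with strain as a block, and the median difference was -0.47. The mean level of the list was 11.16 and 11.38 in BDIV against 11.60 to 12.58. Gldn, gliomedin of the node of Ranvier, read 10.25 and 10.55 against 11.96, 12.47 and 12.65 (-1.99 ± 0.23, limma adjusted p = 0.0026, and 0.0328 with strain as a block). Cnp, a myelin enzyme, read 12.50 and 12.51 against 13.85, 14.14 and 14.54, and Sox10 read 10.87 and 10.83 against 12.05, 12.30 and 12.68. Both were called with strain as a block (adjusted p = 0.0328 and 0.0403). Mbp was not a member, at 12.11 and 12.07 in BDIV, above the 4 congenic arrays (11.30 to 11.72) and below both BDIX arrays (14.06 and 13.19). Nes, the intermediate filament nestin of immature Schwann cells, read 10.14 and 10.30 against 11.87, 12.02 and 12.31 and fell by 1.82, but its list had only 2 of 13 members below.

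Of 21 fibroblast and perineurium genes, 12 were members below (57.1%, against 21.9% of all genes) and 0 above. Called lower were 7 (33.33%, against 7.8% of all genes), 2 of them with strain as a block, and the median difference was -0.92. The mean level of the list was 9.92 and 9.91 in BDIV against 10.16 to 10.85. The matrix protein gene Sparc read 12.65 and 12.97 against 14.27, 14.54 and 14.86, and the collagen V genes Col5a1 (10.21 and 10.39 against 11.48, 11.86 and 12.11) and Col5a2 (10.49 and 10.68 against 11.79, 11.97 and 12.73) fell with it. Col1a1 and Dcn were not members. With arrays scaled to their medians, the calls of this list fell to 1 and those of the myelinating Schwann cell list to 1, with both medians still below 0. Which of these lists moves with another was not tested.

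**Figure D3:**
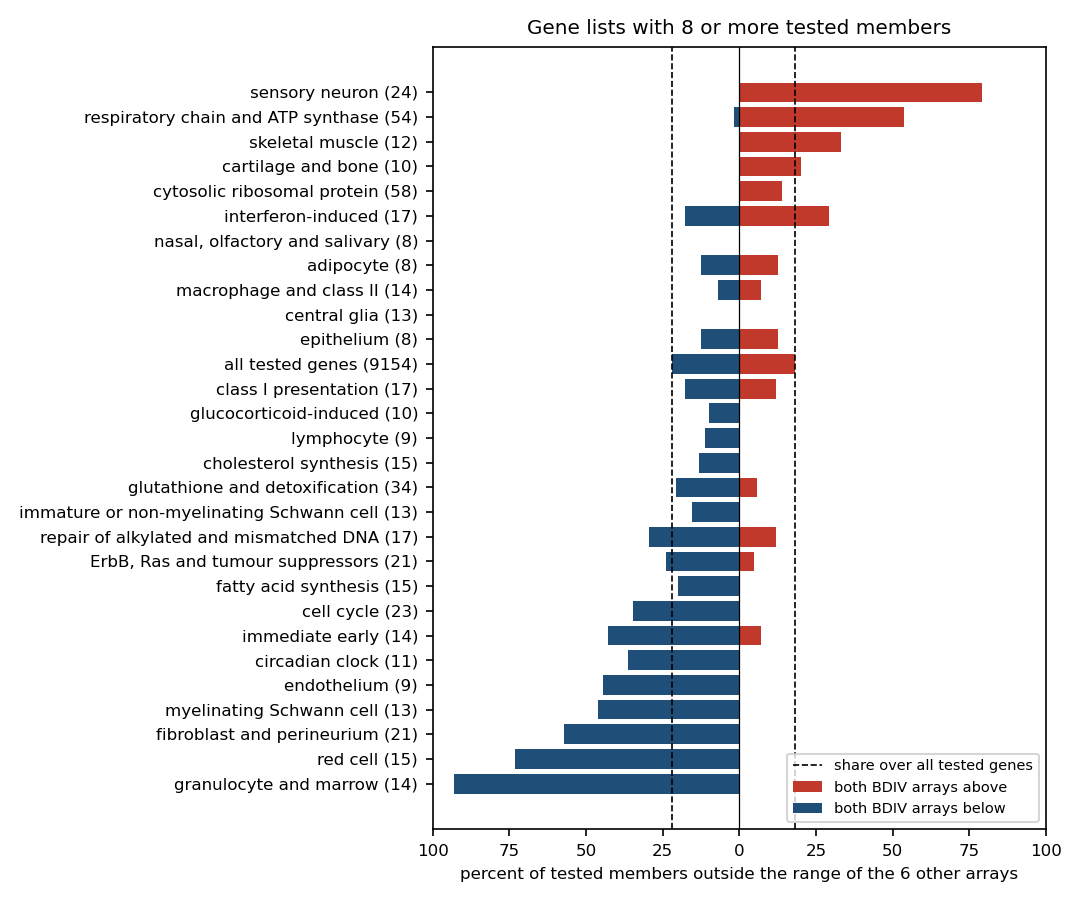
Percent of the tested members of each gene list for which both BDIV arrays lay above (red, right) or below (blue, left) the 6 other arrays, with the number tested in parentheses. Dashed lines mark the shares over all 9154 tested genes, 18.3% above and 21.9% below, and the sensory neuron list reaches 79.2% above while the granulocyte list reaches 92.9% below.

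**Figure D4:**
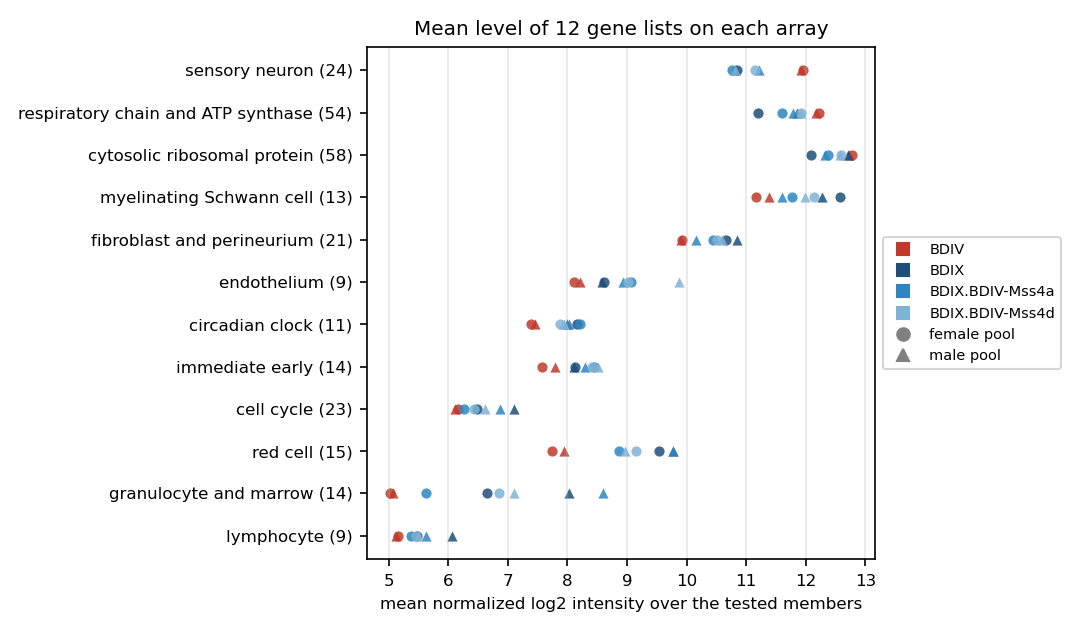
Mean normalized log2 intensity over the tested members of 12 gene lists (x axis), 1 point per array, coloured by strain, circles for female and triangles for male pools. The red BDIV points lie right of all others for sensory neuron genes (11.92 and 11.95 against up to 11.22) and left of all others for red cell genes (7.75 and 7.94 against at least 8.86).

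Genes of the respiratory chain and the ATP synthase were mostly higher in BDIV by small amounts. Of 54 tested, 29 were members above (53.7%, against 18.3% of all genes) and 1 below, 5 were called higher (9.26%, against 6.84% of all genes; 1 after median scaling, and 0 with strain as a block, lowest adjusted p = 0.0932), and the median difference was 0.44. Ndufa7 of complex I read 10.17 and 10.12 against 8.27, 8.88 and 9.14, and Ndufs5, also of complex I, 13.68 and 13.55 against 11.49, 12.28 and 12.76. Cox5a of complex IV averaged 13.09 in the BDIV pools against 11.08, 11.87 and 12.17. The mean level of the list was 12.23 and 12.17 in BDIV and 11.20 to 11.92 on the others, with the BDIX female array lowest. Leaving that array out lowered the median difference to 0.31.

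Erbb2 and Erbb3, the receptors of Nrg1, and the kinase gene Braf were called lower. Erbb2 read 5.50 and 5.63 against 6.55, 6.80 and 7.23, and Erbb3 read 7.79 and 7.43 against 8.45, 8.97 and 9.65. Braf, a kinase of the pathway below Ras, read 8.30 and 8.21 against 8.92, 9.24 and 9.49. They fell by 1.26, 1.36 and 0.97 (limma adjusted p = 0.0114, 0.0221 and 0.0207), and all 3 lost the call with strain as a block (adjusted p = 0.0667, 0.0996 and 0.13). Of 21 tested genes of ErbB, Ras and tumour suppressors, 1 was a member above (4.8%, against 18.3% of all genes) and 5 were below (23.8%, against 21.9%). Called higher was 1 (4.76%, against 6.84% of all genes), and 4 were called lower (19.05%, against 7.8%). After median scaling 0 were called lower.

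Detoxification genes had 7 of 34 members below and 2 above (5.9%, against 18.3% of all genes). Called lower were 5 (14.71%, against 7.8% of all genes), 3 with strain as a block and 2 after median scaling. Cyp1b1, a cytochrome P450, read 9.17 in both BDIV pools against 10.53, 10.72 and 10.94. Gclc, the catalytic subunit of glutathione synthesis, read 8.87 and 8.92 against 10.17, 10.63 and 10.87, and Gstm4, a glutathione transferase, read 7.75 and 7.65 against 8.97, 9.49 and 9.66. They fell by 1.57, 1.67 and 1.71 (limma adjusted p = 0.00281, 0.00512 and 0.00299), although the share of members below (20.6%) was no higher than over all genes. Among 17 genes that repair alkylated or mismatched DNA, the kind of lesion ethylnitrosourea makes, 2 were members above and 5 below. These shares were 11.8% and 29.4%, against 18.3% and 21.9% of all genes. In all, 1 was called higher (5.88%, against 6.84% of all genes) and 2 lower (11.76%, against 7.8%). Alkbh3, an alkylation repair enzyme, rose by 0.89, at 10.08 and 10.14 against 8.89, 9.26 and 9.39. Lig1, a DNA ligase, and Xrcc1, a scaffold of base excision repair, fell by 0.98 and 1.01. The repair calls were lost with strain as a block (lowest adjusted p = 0.114).

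Clock and immediate early genes were lower in part. Nr1d1, the repressor REV-ERB alpha of the circadian clock, read 7.61 and 7.88 in BDIV against 9.82, 10.06 and 10.90 (-2.47 ± 0.32, limma adjusted p = 0.00354, and 0.0247 with strain as a block). Bmal1, an activator of the clock, read 5.98 and 5.62 against 6.53, 6.97 and 7.30, and Bhlhe40, a repressor, read 7.74 and 7.77 against 8.47, 9.10 and 9.47. Per1, a period gene, read 10.20 and 10.98 against 11.23, 11.69 and 12.23. These 4 were the members among 11 tested clock genes (36.4%, against 21.9% of all genes below). All 4 were called lower, against 7.8% of all genes, 1 of them with strain as a block and 1 after median scaling. Clock, Per2, Per3, Cry1, Cry2, Dbp and Tef were not members, and the median over the list was -0.33. The hour at which nerves were taken is not in the labels. CLOCK and BMAL1 bind the E-box, searched as CACGTG, which reads the same on both strands. It was in 2 of the 5 RefSeq promoters of the 4 genes, against 6.42% of all promoters, one each of Nr1d1 (its second start) and Bhlhe40. They are shown with the E-box in capitals.
Nr1d1 (chr10:84229405-84229704, minus strand): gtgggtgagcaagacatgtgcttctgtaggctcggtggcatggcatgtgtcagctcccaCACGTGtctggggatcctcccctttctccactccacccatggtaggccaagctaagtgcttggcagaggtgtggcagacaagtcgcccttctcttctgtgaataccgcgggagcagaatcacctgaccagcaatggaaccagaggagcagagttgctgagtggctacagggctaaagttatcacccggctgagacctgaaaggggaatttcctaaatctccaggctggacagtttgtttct
Bhlhe40 (chr4:143174200-143174499, plus strand): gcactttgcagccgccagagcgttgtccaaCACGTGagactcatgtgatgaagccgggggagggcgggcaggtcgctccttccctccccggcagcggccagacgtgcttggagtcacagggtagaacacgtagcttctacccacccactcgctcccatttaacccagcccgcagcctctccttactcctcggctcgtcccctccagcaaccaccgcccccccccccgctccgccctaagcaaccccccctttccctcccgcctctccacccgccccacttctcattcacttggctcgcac

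Of 14 immediate early genes, which respond to stimuli within minutes, 6 were members below (42.9%, against 21.9% of all genes) and 1 above. Called lower were 4 (28.6%, against 7.8% of all genes). The transcription factor genes Fos (5.53 and 5.51 against 6.49, 7.29 and 8.09), Junb (8.08 and 8.10 against 9.02, 9.53 and 9.82) and Egr1 (7.62 and 7.64 against 8.34, 8.92 and 9.22) fell by 1.78, 1.35 and 1.21. None was called with strain as a block (lowest adjusted p = 0.0685), and 1 gene of the list was called with arrays scaled to their medians. Of 23 cell cycle genes 8 were members below (34.8%, against 21.9% of all genes) and 0 above, with a median difference of -0.53. The helicase subunits Mcm2 and Mcm6 were called lower, by 0.94 and 1.17, and were the only calls of the list (8.7%, against 7.8% of all genes). Neither was called with strain as a block (adjusted p = 0.132 and 0.104), and 0 genes of the list were called after median scaling.

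The remaining lists were also read. Over all genes, 18.3% were members above and 21.9% below. Of 15 cholesterol synthesis genes 2 were members below and 0 were called, and of 15 fatty acid synthesis genes 3 were below. Of the fatty acid genes 1 was called lower (6.67%, against 7.8% of all genes). Of 14 macrophage and class II genes 1 was above and 1 below, and of 9 lymphocyte genes 1 was below. Genes of some neighbouring tissues were high in 1 strain of the 6 arrays. The thyroid list averaged 5.36 and 5.27 in the BDIV pools and up to 12.38 in the Mss4d male pool, and the nasal and salivary list 5.0 and 4.86 in BDIV and up to 8.54 in Mss4a. Neither list had a member among its 6 and 8 tested genes. Of 13 central glia genes 0 were members, and of 10 glucocorticoid-induced genes 1 was below. Of 8 adipocyte and 8 epithelial genes 1 was above and 1 below in each list, and of 4 pericyte genes 1 was above and 2 below. Skeletal muscle had 4 of 12 genes above, cartilage and bone 2 of 10, and the pituitary list 1 of 5 below. Cidea of fat (8.11 and 8.29 against 5.38, 6.90 and 7.0), Pvalb, which also marks muscle, and Alpl of bone were called higher, and none with strain as a block.

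Members were found on every chromosome tested. The share above ran from 13.9% on chromosome 13 to 22.8% on chromosome X, and the share below from 18.4% on chromosome 9 to 26.2% on chromosome 7. The largest falls were less even. Chromosome 10 held 8.74% of the tested genes and 8 of the 27 genes with a gap of 1.5 or more below, and 7 of the 15 largest gaps below were there: Hba-a3, Ifi47, Lgals5, Alox15, Rhbdf1, Mfap3 and Nr1d1. Chromosomes 2 and 20 held 4 each of the 25 gaps of 1.5 or more above. This unevenness was seen in the data and was not tested. Neighbouring members on the same side made at most 5 tested genes in a row, in 4 places. On chromosome 1 these were Ptpn5, Mrgprx3, Mrgprb4, Zdhhc13 and Htatip2, all above, and on chromosome 13 Nuak2, Tmcc2, Dstyk, Rbbp5 and Tmem81, all below. The others were Psmd6 to Ptprg on chromosome 15, above, and Dlc1 to Saraf on chromosome 16, below. Gene order is that of GRCr8, and the array names no genome build.

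**Figure D5:**
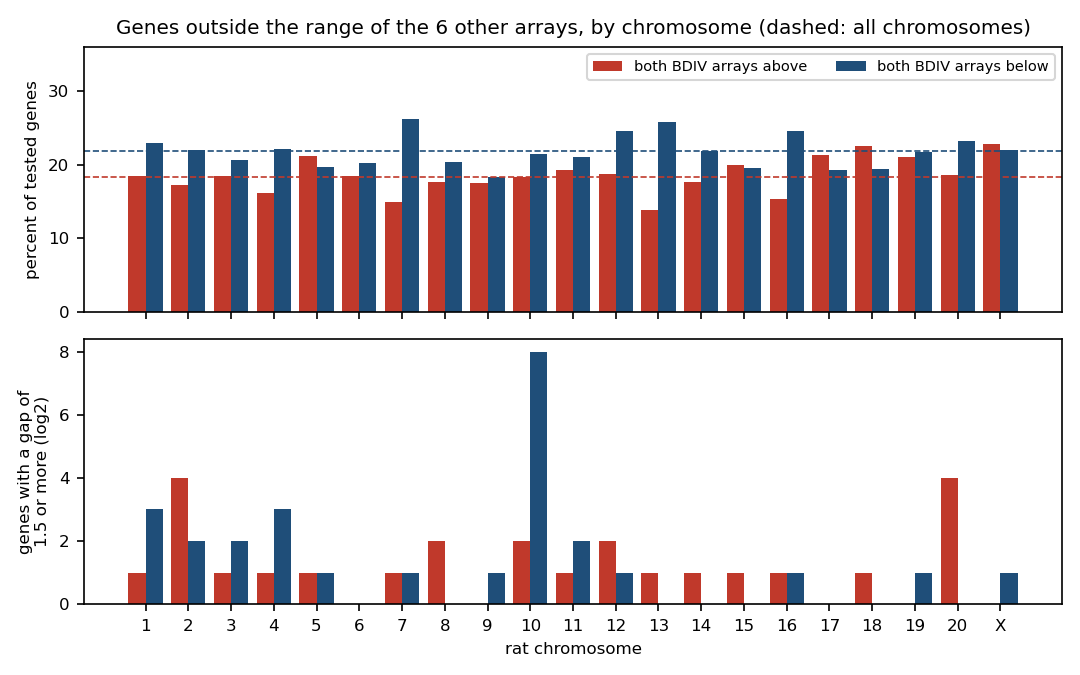
Percent of tested genes on each rat chromosome with both BDIV arrays above (red) or below (blue) the 6 others (upper panel, dashed lines for all chromosomes, 18.3% and 21.9%), and number of genes with a gap of 1.5 or more on the log2 scale (lower panel). The shares are similar across chromosomes, while chromosome 10 holds 8 large gaps below.

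The 3 other strains were not equally far from BDIV. Among the member probes, BDIV was nearest to BDIX at 44.6%, to Mss4a at 28.6% and to Mss4d at 26.8%, by the smallest difference of strain means. These shares describe the members and were not tested.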

How the data were processed

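Total RNA of pooled trigeminal nerves was hybridised to Illumina RatRef-12 arrays, with GenomeStudio as the reading software, per the labels and the submitters' processing notes. The deposited non-normalized table holds linear bead intensity per probe, with a deposited detection p-value beside it in steps of 1 in 825. The authors' value table, also linear intensity, was on each array a straight line of that signal (largest residual 0.0143). Its options are not given in the sources used here.

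In R 4.3.3 with limma 3.58.1, neqc (offset 16, negative controls inferred from detection p) gave quantile normalized log2 values. Probes with detection p under 0.05 on at least 2 of 8 arrays were tested with lmFit and eBayes, BDIV against the other 6 with sex as a term (5 residual degrees of freedom), two-sided, Benjamini-Hochberg adjusted over all 13114. Errors are limma standard errors. The random block used duplicateCorrelation (statmod 1.5.0). A probe not above background on any array of a group has a bound: the bright mean against, per array, the higher of the lowest detected value and its own. Gene symbols came from the array's gene identifiers through RefSeq (GRCr8): 13752 probes by gene identifier, 5 by accession and 36 by array symbol, with 8730 unnamed. Lists and chromosomes used each gene's brightest probe. The fit was tested on simulated data.

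Members, lists and the naming rule were chosen with earlier results of these data known, so a pattern already seen has no independent support here. Named were, among called members, the 15 largest gaps each way, up to 12 genes each way above background on one side alone, up to 10 genes each way with all probes outside the range, up to 4 members of each list by gap (called or not), and 6 given genes. Clock and other genes named as non-members were read from the lists. Alternatives were background correction, scaling, the authors' values, filters, variance, strain terms, and leaving out arrays or strains.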

Additional observations from a re-analysis of the deposited data

Results flagged for a closer look

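For 161 named probes, the spacing of the 6 BDIX-background arrays was examined for a single array far from the other 5, and 10 were found. Chance gives about 1 in 20 sets. In Hp the Mss4a male pool was high, at 9.15 against 7.67 for the next array. In Aurkb, a mitotic kinase, the Mss4a female pool was high, at 8.81 against 6.51. The Mss4d male pool was high in Ung, a DNA glycosylase (7.48 against 5.88), and in Esam, an endothelial adhesion protein (9.57 against 8.71), and low in Alpl (8.0 against 8.21). The BDIX female pool was low in Cidea (5.38 against 6.72), in Ifi27, an interferon-induced gene (11.18 against 12.22), and in Cd3g, a T cell receptor subunit (5.98 against 6.85). The BDIX male pool was low in Catsperg (6.92 against 7.35) and high in Rgs5 (4.89 against 4.67), where all 6 values were at background. In each of the 10 the BDIV arrays lay outside the range that includes the distant array. The rule by which these probes were named required this, so it is no separate support.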

How the results depend on the processing

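The count of 1857 called probes became 583 with arrays scaled to their medians, 222 with strain as a random block, 4500 with strain as a 4-level term (which compares strain means against the spread within strains), 2794 without both BDIX arrays, 1100 without both Mss4d arrays, and 422 at an adjusted p under 0.01. On leaving out single arrays it ranged from 9 (without the BDIV female pool) to 2218 (without the BDIX female pool), where a lone BDIV array is taken to vary as the other groups do. Under the other alternatives it lay between 1453 and 2375. The 5152 probes outside the range became 2859 in the unscaled signal (2322 above and 537 below), 4207 with median scaling (2727 above and 1480 below) and 1551 with a gap of at least 0.5, and ranged from 5314 to 6061 on leaving out single arrays. Of the members, 1983 above and 1134 below were members under all 3 other scalings. Calls for a different BDIV effect in the sexes stayed at 0 wherever they could be fitted, which excludes leaving out a BDIV array. Of 127 called named probes, 109 were called on leaving out each of the 6 other arrays, 50 with strain as a block and 67 with median scaling. No named probe changed sign under these alternatives. This follows largely from the naming rule, since nearly all named probes had both BDIV arrays beyond all 6 others. No paired analysis was possible because the pools of a strain share a number by sex alone, which is a term of the fit. The cause of these shifts was not tested. Dim probes limit every fold given as a bound.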
